A study of Arabidopsis thaliana with 8 samples.

Results

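The genes described here are 6 protein-coding genes of the mitochondrial genome of Arabidopsis thaliana: nad4, nad4L and nad5, which encode subunits of respiratory complex I, cox1, which encodes the core subunit of cytochrome c oxidase, ccb382, which encodes a protein of cytochrome c maturation, and orfX, which encodes a membrane protein. They were chosen by name: every probe set that the platform's annotation table pairs with 1 of these 6 symbols and with no other gene was taken. These are 6 of the 13350 genes with a probe set of their own. The rule gave 7 of the 22746 probe sets without Affymetrix controls, because nad5 has 2 (257337_at and 257338_s_at). Each of the other 5 genes has 1 probe set: 244929_at for nad4, 244902_at for nad4L, 257333_at for cox1, 244912_at for ccb382 and 244928_s_at for orfX. In the RefSeq gene table of TAIR10.1 ccb382 is a synonym of ccmFN1 and orfX a synonym of mttB. No genome build is named for the probe sets, so no coordinates are given.

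Complex I takes electrons from NADH and pumps protons across the inner mitochondrial membrane, and cytochrome c oxidase passes electrons from cytochrome c to oxygen at the end of the chain. In plants the mitochondrial genome encodes the hydrophobic core of these complexes, while most other subunits are encoded in the nucleus and imported. Plant mitochondrial transcripts are edited from C to U and often spliced, those of nad5 partly in trans from separate precursors, and a poly(A) tail on them is known as a mark for decay. Chromosome 2 of the Columbia accession carries a large copy of the mitochondrial genome. Signal from that copy cannot be told apart from signal of the mitochondrial genes, and 11 further probe sets name both a mitochondrial gene and a chromosome 2 locus. The ending _s_at, carried by the orfX probe set and by 1 nad5 probe set, is the maker's mark for probes that match more than 1 transcript.

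Transcripts were measured with the Affymetrix ATH1 array in 8 seedling samples, 2 for each of 4 genotypes, all in the Columbia accession. The genotypes were wild type (WT), a mutant with the allele phyA-211 of the phytochrome A gene (phyA), a mutant with the allele phyB-9 of the phytochrome B gene (phyB) and a mutant with both alleles (phyAphyB). Phytochromes are plant photoreceptors for red and far-red light. Per the labels, every genotype was treated alike: after 5 days of chilling at 6 degrees C, a white light pulse of 1 h started germination, and seedlings grew on 0.8% agar for 3 days in the dark at 22 degrees C. The labels do not tie the 2 arrays of a genotype to separate cultures, so the p-values reflect the spread between arrays alone, and that spread may be technical. As the samples are seedlings with all their cell types, fewer cells of a type and less RNA per cell cannot be told apart.

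The authors deposited linear intensities whose 2% trimmed mean lay between 2500.23 and 2500.32 on each array, so they had been scaled before deposit. The arrays had median intensities of 605.5 to 898 without controls. Signal at the 3' end of the GAPDH control transcript over that at its 5' end, a ratio that degraded RNA raises, was 1.31 to 2.31 in 6 arrays but reached 7.87 for phyB replicate 2 and 16.7 for WT replicate 1. A second GAPDH control pair gave 3.53 in WT replicate 1 and 1.47 in phyB replicate 2, the latter slightly above the 1.12 to 1.36 of the remaining arrays. The 3'/5' ratio of the actin control was 46.7 and 10.8 in WT (replicates 1 and 2), 5.61 and 3.64 in phyA, 3.89 and 7.50 in phyB, and 8.28 and 7.78 in phyAphyB. By actin, phyB replicate 2 did not stand apart, and the single mutant arrays all lay below the WT and double mutant arrays. The annotation table names no probe set for PHYA or PHYB alone, and the mutated genes were therefore not used to check the genotypes. Of 12 seedling markers 3 have a named probe set. PORB, a light-dependent chlorophyll synthesis enzyme, lay between 34265 and 63901, ICL, an enzyme of reserve lipid use, between 57480 and 148008, and PYK10, a beta-glucosidase of roots and hypocotyls, between 66582 and 120174. The leaf marker RCA lay between 9664 and 31551 and the seed marker PAP85 between 4426 and 24718. None of 8 flower and pollen markers has a named probe set.

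None of the 7 probe sets passed the test for any difference between genotypes. The same phyB array gave the highest value of all 7, phyB replicate 2, where 14.7% of the 13647 probe sets tested were highest. Tests were made with limma on log2(intensity + 39), where 39 is the 10th percentile of all values. Probe sets among the 40% of lowest mean level were left out, and all 7 probe sets passed that filter. A probe set was called at a Benjamini-Hochberg adjusted p under 0.05 over all probe sets tested. Over the 4 genotypes the moderated F test called 0 of the 7, beside 0.0147% of all probe sets tested. At an unadjusted p under 0.05 it had 2 of 7, both naming nad5, beside 2.72% of all (smallest unadjusted p 0.00817, limma adjusted p = 0.999).

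**Figure D1:**
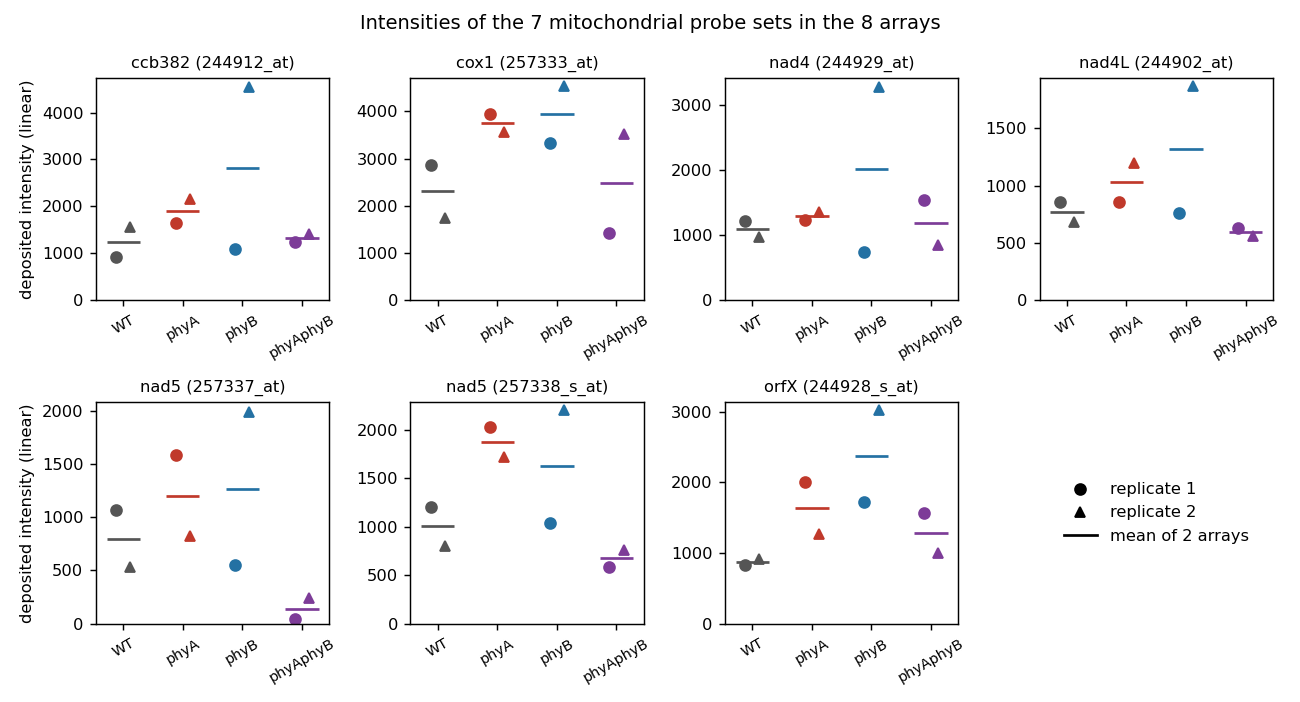
Deposited intensity (linear scale, vertical axis from 0) of each of the 7 probe sets by genotype, with circles for replicate 1, triangles for replicate 2 and a line at the mean of the 2 arrays. The phyB replicate 2 triangle is the highest point in every panel, up to 4548 for ccb382, while phyB replicate 1 lies at 1084 there.

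Of the complex I genes, nad4 encodes a large membrane subunit related to ion antiporters and thought to take part in proton pumping. Its intensity was 1211 and 968 in WT, 1235 and 1356 in phyA, 737 and 3280 in phyB, and 1531 and 840 in phyAphyB (replicates 1 and 2 in each case). Its phyB arrays were both the lowest and the highest of the 8, and only phyA stood apart from WT, by a narrow margin. The change against WT was 0.25 for phyA, 0.52 for phyB and 0.07 for phyAphyB on the log2 scale (SE 0.62 each).

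nad4L encodes a small membrane subunit of complex I. Its intensity was 853 and 678 in WT, 858 and 1196 in phyA, 762 and 1871 in phyB, and 631 and 557 in phyAphyB. Both double mutant arrays were the lowest of the 8, and phyA replicate 1 lay just above WT replicate 1. On the log2 scale nad4L stood at 9.64 ± 0.22 in WT and 9.30 ± 0.12 in phyAphyB (SD, n = 2), a change of -0.34 (SE 0.48, limma adjusted p = 0.997).

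nad5 encodes another large antiporter-like membrane subunit. By 257338_s_at its intensity was 1207 and 801 in WT, 2028 and 1717 in phyA, 1041 and 2203 in phyB, and 586 and 764 in phyAphyB. Both phyA arrays lay above both WT arrays and both double mutant arrays lay below them. By 257337_at the intensity was 1064 and 532 in WT, 1582 and 823 in phyA, 548 and 1983 in phyB, and 41 and 237 in phyAphyB. Here the double mutant again held the 2 lowest arrays, and the phyA and WT arrays overlapped. The share of all probe sets with both double mutant arrays lowest, as for nad4L and nad5, was not taken.

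For nad5 the change of the double mutant against WT was -2.42 by 257337_at (SE 0.75, 95% interval -4.09 to -0.75, limma adjusted p = 0.997) and -0.53 by 257338_s_at (SE 0.45, interval -1.53 to 0.47, adjusted p = 0.997), and the difference between both probe sets was not tested. The intensity of 41 for 257337_at in phyAphyB replicate 1 was near the added 39, which therefore bears on the size of that change. Both probe sets had an interval below 0 for phyAphyB against each single mutant, with no adjustment for the number of probe sets. Against phyA the changes were -2.99 (interval -4.66 to -1.32) and -1.43 (interval -2.43 to -0.43), and against phyB -2.87 and -1.14.

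cox1 encodes the subunit of cytochrome c oxidase that binds heme and copper at the site of oxygen reduction. Its intensity was 2872 and 1734 in WT, 3951 and 3571 in phyA, 3327 and 4545 in phyB, and 1425 and 3523 in phyAphyB. All 4 single mutant arrays lay above both WT arrays, and the double mutant arrays spread across the WT values and beyond. Over all probe sets tested, 18% had both phyA arrays above both WT arrays and 14.7% had both phyB arrays above them. The share with both patterns together was not taken. The change was 0.74 for phyA (SE 0.47, 95% interval -0.30 to 1.78, limma adjusted p = 0.798) and 0.79 for phyB (interval -0.25 to 1.83, adjusted p = 0.872).

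ccb382 (ccmFN1) encodes a part of the machinery that attaches heme to c-type cytochromes. Its intensity was 921 and 1561 in WT, 1648 and 2166 in phyA, 1084 and 4548 in phyB, and 1241 and 1409 in phyAphyB. The phyA arrays lay above WT, and the 2 phyB arrays lay further apart than those of any other genotype, at a SD of 1.44 on the log2 scale against 0.13 to 0.52. Its change was 0.64 for phyA and 0.87 for phyB (SE 0.59 each), and leaving out phyB replicate 2 turned the phyB change to -0.14, while leaving out phyB replicate 1 gave 1.89.

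orfX (mttB) encodes a protein related to TatC, a component of the twin-arginine protein export system of bacteria. Its intensity was 831 and 913 in WT, 2005 and 1263 in phyA, 1721 and 3026 in phyB, and 1563 and 1003 in phyAphyB. All 6 mutant arrays lay above both WT arrays, which was the case for no other of the 7 probe sets and for 6.02% of all probe sets tested. The change against WT was 1.35 for phyB, a 2.55-fold higher level (SE 0.43, 95% interval 0.39 to 2.31, limma adjusted p = 0.737), 0.84 for phyA (interval -0.12 to 1.81, adjusted p = 0.761) and 0.51 for phyAphyB (interval -0.46 to 1.47, adjusted p = 0.997). Without phyB replicate 2 the phyB change was 0.95.

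In seedlings without phytochrome A the changes of all 7 probe sets against WT were positive and none was called. They ran from 0.25 for nad4 to 0.90 for nad5 by 257338_s_at, with a median of 0.64 beside -0.01 over all probe sets tested. limma called 0 of the 7, beside 0.0147% of all, and at an unadjusted p under 0.05 also 0 of 7, beside 6.37% of all. In 6 of the 7, all but nad5 by 257337_at, both phyA arrays lay above both WT arrays, where 18% of all probe sets did. Without WT replicate 1, so that the phyA arrays were set against WT replicate 2 alone, this held for 7 of 7, beside 29.1% of all. Such a count cannot fall when an array is left out, so only nad5 by 257337_at is new there. The median of the 7 was 0.56 between the replicate 1 arrays and 0.59 between the replicate 2 arrays, with 7 of 7 positive in each. For the 6 these signs follow from the separation of the arrays and add no evidence. Against WT replicate 1 alone, the array of the highest GAPDH ratio, the median was 0.38. Both WT arrays had a higher actin ratio (46.7 and 10.8) than both phyA arrays, and its part in the result was not tested.

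In seedlings without phytochrome B the median change turned on 1 array. All 7 changes against WT were positive, from 0.46 for nad5 by 257337_at to 1.35 for orfX, with a median of 0.63 beside -0.06 over all. limma called 0 of the 7, beside 0% of all probe sets, and 1 of 7, orfX, had an unadjusted p under 0.05, beside 5.93% of all. Both phyB arrays lay above both WT arrays for orfX and cox1 only, 2 of 7, where 14.7% of all probe sets did. Between the replicate 1 arrays the median of the 7 was -0.16 with 3 of 7 positive, and between the replicate 2 arrays it was 1.52 with 7 of 7 positive. Without phyB replicate 2 the median change was 0.0023, and without phyB replicate 1 it was 1.35. Without phyB replicate 2 the changes of nad4, ccb382 and nad5 by 257337_at were negative, at -0.53, -0.14 and -0.44. Those of nad4L and nad5 by 257338_s_at were then 0.0023 and 0.08, and those of cox1 and orfX 0.57 and 0.95. The phyB replicate 2 array is also the one with the GAPDH ratio of 7.87, and its part in the result was not tested.

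**Figure D2:**
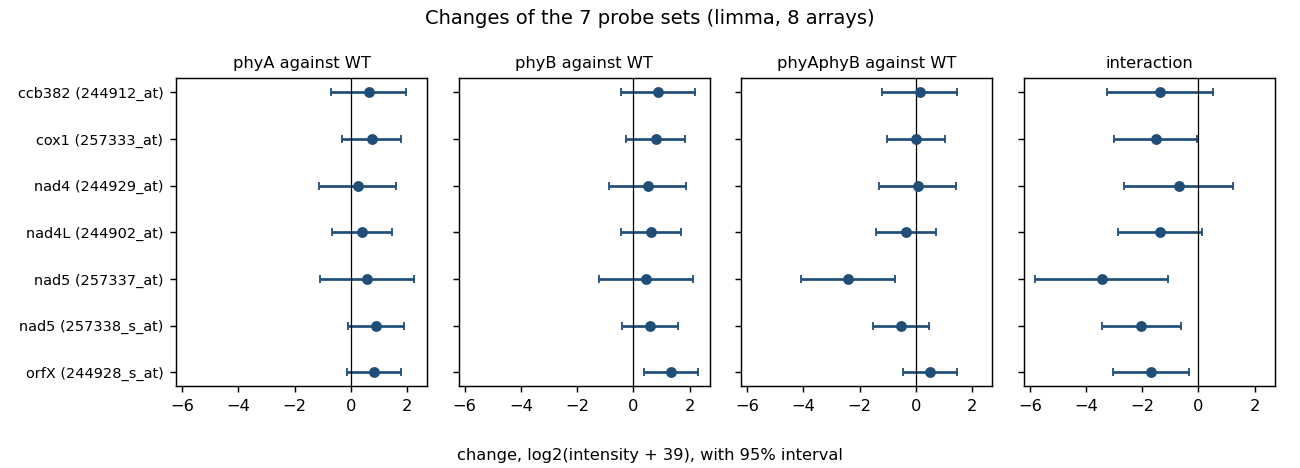
Change of each of the 7 probe sets (points, horizontal axis on the log2(intensity + 39) scale) with its 95% interval from limma, for the 3 mutants against WT and for the interaction. The points for phyA and for phyB all lie above 0 and those for the interaction all lie below it. The interaction signs follow from the phyA changes against WT and the double mutant changes against phyB. Most intervals for the mutants against WT cross 0, while 4 of the 7 unadjusted intervals for the interaction lie wholly below it.

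In seedlings without both phytochromes 4 of the changes against WT were positive and 3 negative, none of them called, with a median of 0.01 beside 0.04 over all, and limma called 0 of 7, beside 0.022% of all. At an unadjusted p under 0.05 there was 1 of 7, nad5 by 257337_at, beside 3.57% of all. Both double mutant arrays lay above both WT arrays for orfX, 1 of 7 (17% of all), and below them for nad4L and both nad5 probe sets, 3 of 7 (13.3% of all). The median change was -0.12 after centring each array on its median and ran from -0.35 to 0.01 when 1 array was left out, so its sign depends on the scaling and on single arrays.

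Against each single mutant the 7 changes of the double mutant were all negative and none was called. Against phyA the median was -0.73 beside 0.04 over all, with limma calls for 0 of 7 and for 0% of all, and 2 of 7, both naming nad5, at an unadjusted p under 0.05, beside 0.784% of all. Both double mutant arrays lay below both phyA arrays for 5 of 7, all but nad4 and orfX, where 8.67% of all probe sets did. This comparison uses neither array of high GAPDH ratio, but the actin ratio was higher in both double mutant arrays (8.28 and 7.78) than in both phyA arrays (5.61 and 3.64), and its part in the result was not tested. The median ran from -0.86 to -0.65 over the alternatives tried. Against phyB the median was -0.85 beside 0.10 over all, with calls for 0 of 7, beside 0.0147% of all, and again both nad5 probe sets, 2 of 7, at an unadjusted p under 0.05, beside 1.08% of all. Both double mutant arrays lay below both phyB arrays for 4 of 7 (10.4% of all), namely nad4L, both nad5 probe sets and orfX. Without phyB replicate 2 the median against phyB was -0.45, and without phyB replicate 1 it was -1.60. These comparisons share arrays with those against WT, so their directions are not independent.

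The interaction asks whether the change in the double mutant differs from the sum of the changes in both single mutants. It was negative for all 7 probe sets and called for 0 of 7, beside 0% of all probe sets tested (limma adjusted p = 0.996 each). That sign follows from the negative changes of the double mutant against phyB and the positive phyA changes against WT. It therefore adds no evidence. This direction was not particular to the 7. The interaction was also negative for 8 of 8 other mitochondrion-encoded probe sets tested (median -1.65) and for 65 of 69 plastid-encoded ones (median -1.13). High values of those 8 in phyB replicate 2 counted towards passing the filter and also lower the interaction, so their count is not free of selection. Among the 7 it had its lowest value for nad5, at -3.45 by 257337_at (SE 1.06) and -2.03 by 257338_s_at (SE 0.63). For orfX it was -1.69 (SE 0.61), for cox1 -1.52 (SE 0.66), for ccb382 -1.38, for nad4L -1.37 and for nad4 -0.70. At an unadjusted p under 0.05 there were 4 of 7 (nad5 by both, orfX and cox1), beside 3.3% of all. The median was -1.52 beside 0.12 over all probe sets, and it was -1.29 without phyB replicate 2, -2.09 without phyB replicate 1 and -1.66 after median centring. Without phyB replicate 2 the values of nad4 and ccb382 were 0.35 and -0.36, while those of both nad5 probe sets were -2.56 and -1.51.

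By mean level, for nad4, nad4L, cox1, ccb382 and orfX the order of the genotypes began with phyB and then phyA, and for both nad5 probe sets with phyA and then phyB. The arrays of phyB and phyA overlapped in all 7, as they did for 70.3% of all probe sets tested. WT and phyAphyB came after these, with phyAphyB last for nad4L and nad5 and WT last for nad4, cox1, ccb382 and orfX. Of the 21 pairs of neighbours in these orders 14 overlapped and 7 did not, where 14.5% of such pairs did not over all probe sets tested. The 7 were WT over phyAphyB for nad4L (0.34 on the log2 scale) and for nad5 (2.42 by 257337_at and 0.53 by 257338_s_at), phyAphyB over WT for orfX (0.51), phyA over WT for nad4L (0.40) and phyA over phyAphyB for cox1 (0.73) and ccb382 (0.50).

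Other mitochondrion-encoded genes were read in 16 further probe sets that name 10 genes alone, matched by symbol to the RefSeq gene table. Of the 16, 14 were highest in phyB replicate 2, and no share over all probe sets without the filter was taken. The 8 that passed the filter name nad1, nad6, nad9, cox2, ccb206 and ccb452. All 8 were highest in phyB replicate 2, where 14.7% of the 13647 probe sets tested were. limma called 0 of these 8 in every comparison. Their median change was 0.49 for phyA with 7 of 8 positive, 0.94 for phyB with 8 of 8 and -0.05 for phyAphyB with 3 of 8. The high values in phyB replicate 2 counted towards passing the filter, so the phyB count and the interaction count are not free of that selection. cox2, which encodes the copper-binding subunit that receives electrons from cytochrome c, had intensities of 667 and 558 in WT, 733 and 724 in phyA, 670 and 1320 in phyB, and 285 and 553 in phyAphyB. Its phyA arrays lay above WT and its double mutant arrays below, as for nad5 by 257338_s_at. nad9, a complex I subunit of the matrix arm, had a change of -0.11 for phyA, 0.89 for phyB and -1.12 for phyAphyB (SE 0.55 each). ccb206 (ccmB in RefSeq) and ccb452 (ccmFC), both of cytochrome c maturation like ccb382, stood at 0.90 and 0.50 for phyA and at 1.19 and 0.99 for phyB.

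Of the genes left out by the filter, nad7 lay between 23 and 142, nad2 between 12 and 333, matR between 12 and 566 and ccb203 between 32 and 2031. Only nad7 and nad2 were not highest in phyB replicate 2, where they stood at 35 and 48, near the added 39. The highest array was phyA replicate 2 for nad7 and WT replicate 1 for nad2. nad1, whose mature transcript is also joined in trans, has 7 probe sets of its own, of which 3 passed the filter. Their phyA changes were 0.79, 0.47 and 1.06 and their phyB changes 1.01, 0.79 and 1.35. High values in phyB replicate 2 counted towards passing the filter, so these phyB changes are not free of that selection. nad6 stood at 0.03 for phyA, 0.58 for phyB and -0.78 for phyAphyB.

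Nuclear genes of complexes I to V and cytochrome c had median levels near the WT mean in phyB replicate 2. In that array the mitochondrion-encoded genes were high. For these nuclear genes the WT arrays themselves lay apart. Replicates 1 and 2 stood at 0.31 and -0.31 from their mean for complex I, and at 0.36 and -0.36 for complexes II to V and cytochrome c. Against the WT mean, the median of the 7 probe sets was 1.35 in phyB replicate 2 and that of the 8 other mitochondrion-encoded probe sets 1.71. The median of 24 nuclear complex I genes was 0.10 there, that of 25 nuclear genes of complexes II to V and cytochrome c 0.03, and that of all probe sets -0.02. Smaller nuclear lists stood at -0.67 (4 genes of alternative respiration), 0.06 (4 of cytochrome maturation and assembly) and 0.77 (3 of mitochondrial gene expression). Plastid-encoded genes, 69 probe sets, stood at 1.51 in the same array and at 1.19 in phyA replicate 2, against 0.15 in phyA replicate 1. Their changes against WT were positive for 64 of 69 in phyA (median 0.70) and 65 of 69 in phyB (median 0.77). In phyAphyB 56 of 69 were positive (median 0.28). The 7 probe sets were at 0.81 and 0.63 in the phyA arrays (replicates 1 and 2), and the 8 other mitochondrion-encoded ones at 0.14 and 0.66. In phyA replicate 1 the 7 probe sets therefore had a higher median than both other organelle groups, a difference that was not tested.

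**Figure D3:**
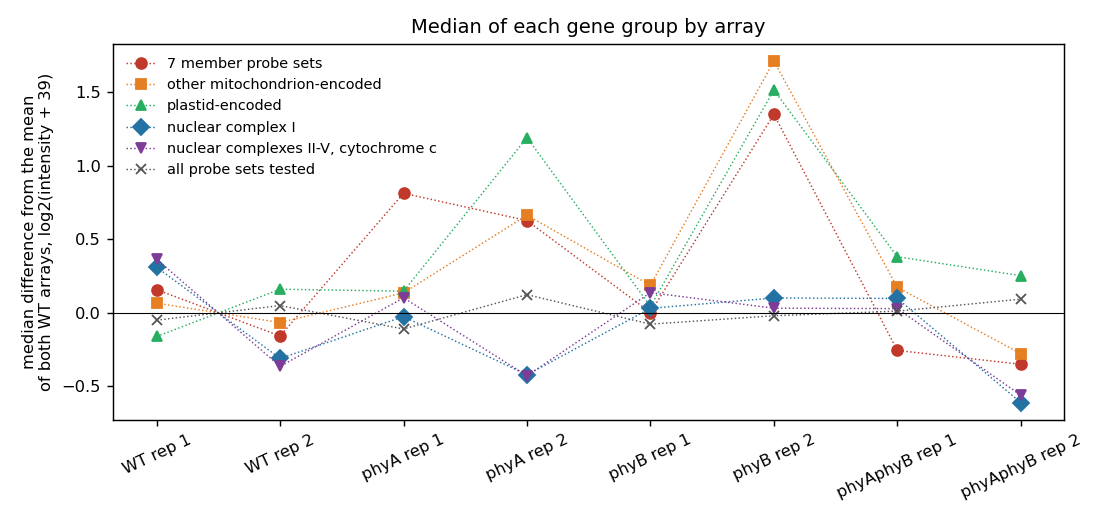
Median difference from the mean of both WT arrays (vertical axis, log2(intensity + 39)) for 6 gene groups in each of the 8 arrays. In phyB replicate 2 the 3 organelle-encoded groups lie between 1.35 and 1.71, and the 2 plotted nuclear groups and all probe sets tested between -0.02 and 0.10.

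No nuclear gene of the respiratory lists was called by limma in any comparison. For phyA, 8 of the 24 nuclear complex I genes had a positive change (median -0.26) and 9 of 25 of the genes of complexes II to V and cytochrome c did (median -0.36). For phyB the counts were 16 of 24 (median 0.06) and 14 of 25 (median 0.04), and for phyAphyB 4 of 24 (median -0.27) and 7 of 25 (median -0.24). Against the WT mean, the complex I median was -0.03 and -0.42 in phyA and 0.10 and -0.61 in phyAphyB (replicates 1 and 2). For complexes II to V and cytochrome c it was 0.10 and -0.43 in phyA and 0.03 and -0.56 in phyAphyB. The replicate 1 arrays of both genotypes thus lay near the WT mean. By the F test the smallest p in these lists belonged to AT5G11770, a complex I subunit, with changes of 0.86, 1.28 and 0.61 in phyA, phyB and phyAphyB, and AT5G47030, a subunit of the ATP synthase, with 1.49, 1.66 and 1.28. They were followed by AT2G42310 and AT3G62790 of complex I, with phyA changes of 0.08 and -0.90, and by AT2G01090 of complex III and AT5G61310 of complex IV, with -0.87 and -0.90. The limma adjusted p of the F test was 0.999 for each of these genes.

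Of the alternative respiratory pathway, which bypasses proton pumping, 4 of 13 listed genes were measured. NDB3, a type II NAD(P)H dehydrogenase, had changes of -0.60, -0.93 and -1.29 in phyA, phyB and phyAphyB, its relative NDB2 0.66, -0.11 and 0.83, and NDC1 0.30, -0.48 and 0.22. Of the nuclear genes for cytochrome maturation and assembly 4 of 11 were measured. CCMH, which works in cytochrome c maturation as ccb382 does, stood at 0.26, 0.61 and 0.28, AT5G43680 at -0.08, -0.29 and 0.50, and AT1G53030, a copper chaperone for cytochrome c oxidase, at -0.46, 0.04 and -0.49. Of 31 listed nuclear genes for mitochondrial gene expression only 3 were measured: the maturase-like genes AT5G04050 and AT5G46920 stood at 0.12 and 0.13 for phyA, 0.41 and 0.18 for phyB, and 0.36 and -0.01 for phyAphyB. OSB1, a single-strand DNA-binding protein, stood at 0.35, 0.23 and 0.34.

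The mean profile of the 7 probe sets over the 8 arrays was set against that of every other named gene that passed the filter, 7301 in all. The highest Pearson correlation was that of the mitochondrial gene cox2, at 0.919 (Spearman 0.976), followed by psbD, a plastid-encoded core subunit of photosystem II, at 0.919 (0.810). The nuclear genes AT3G52260, AT4G27530, AT1G09520 and AT1G30880 came next, at 0.911, 0.891, 0.881 and 0.875. These genes were picked for their likeness over 8 arrays out of 7301 genes, so no p is given, and the arrays share their scaling and the high phyB replicate 2. Without the 2 arrays farthest from the median of the profile, phyB replicate 2 and phyAphyB replicate 1, the value was 0.927 for cox2 and 0.929 for psbD and lay between 0.601 and 0.803 for the 4 nuclear genes. The median correlation was 0.848 for the 6 other mitochondrial genes that passed the filter, 0.576 for the 69 plastid-encoded genes and -0.03 for the 7208 nuclear genes. High values in phyB replicate 2, where the profile also has its peak, counted towards passing the filter for those 6. The medians were not taken without that array, and genes left out by the filter, such as nad7 and nad2, were not compared.

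**Figure D4:**
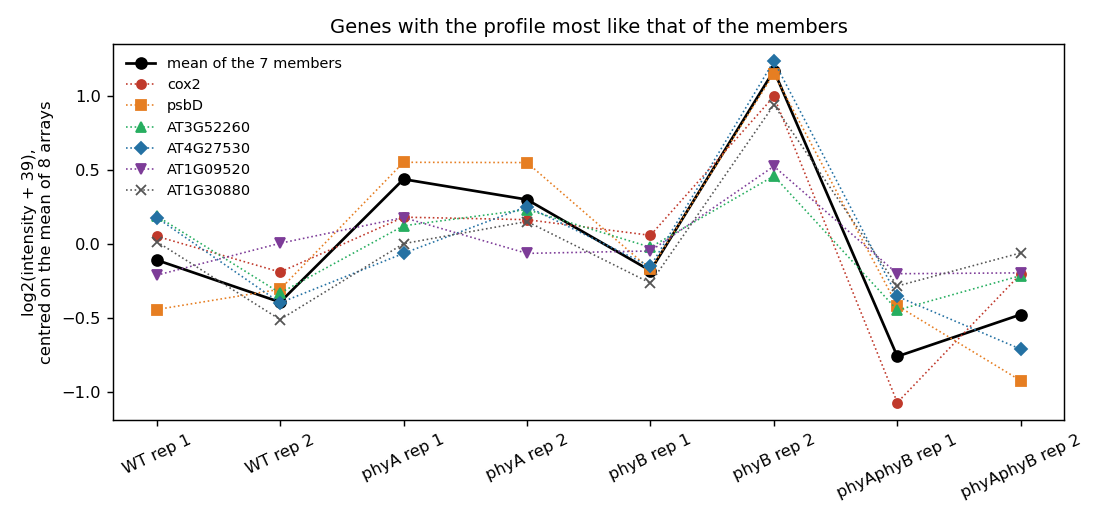
Mean profile of the 7 probe sets (black) and the 6 genes with the most similar profile (dotted lines), each as log2(intensity + 39) centred on its mean over the 8 arrays. All have their highest value in phyB replicate 2, and psbD has its next highest values in the 2 phyA arrays, as the mean of the 7 probe sets does.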

How the data were processed

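Per the labels, total RNA of 8 seedling samples was extracted with a column kit, labelled and hybridised to ATH1 arrays following the maker's instructions. The authors deposited intensities, whole numbers on a linear scale and 1 per probe set and array. The steps and software behind each probe set value are not given in the sources used here. Groups were taken from the genotype in each title. The phyA array with no number in its title is called replicate 1, in accession order. The members and gene lists, and the rule for named genes, were chosen with earlier results of these data known. All 7 member probe sets and the genes of all other single-gene mitochondrial probe sets are named. So are the 3 members of each list with the smallest F test p and the 6 genes with the most similar profile.

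Intensities were used without further normalization. The 64 controls were left out, a pseudocount of 39 was added before log2, and 13647 of 22746 probe sets passed the filter. limma 3.58.1 (R 4.3.3; lmFit, contrasts.fit and a trended eBayes) was fitted to the 8 arrays with 1 mean for each genotype, with 4 residual and 5.87 prior degrees of freedom. The fit was tested on simulated data. Two-sided p-values were adjusted by Benjamini-Hochberg over all probe sets tested, and 95% intervals are unadjusted. Probe sets were named through the platform annotation: 13513 named 1 gene, 503 several, and 8730 were not listed. The mitochondrial entries carry older gene numbers and were placed by symbol or synonym. Precision is limited by 2 arrays per genotype. The alternatives were a pseudocount of 1, median centring, quantile normalization, no filter, a replicate block, each array left out, and WT replicate 1 and phyB replicate 2 left out together.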

Additional observations from a re-analysis of the deposited data

How the results depend on the processing

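No member was called in any comparison under any of the alternatives run. The direction of the phyA changes against WT was kept for all 7 probe sets under all of them, with a median of 0.38 to 0.81. For phyB against WT the median change of the members ran from 0.0023 when phyB replicate 2 was left out to 1.35 when phyB replicate 1 was. For phyAphyB against phyB it ran from -1.60 to -0.45 and for the interaction from -2.09 to -1.29 when 1 array was left out, in each case with the extremes set by the 2 phyB arrays. With WT replicate 1 and phyB replicate 2 left out, a count chosen after seeing the data, phyB replicate 1 lay above WT replicate 2 for 5 of the 7 probe sets, where 45% of all probe sets did. That comparison has 1 array on each side, and such a count cannot fall when arrays are left out. The same-numbered arrays are not known to share a batch. Their deviations from the genotype means were correlated between -0.06 (WT and phyB) and 0.64 (WT and phyAphyB), and with the replicate number as a block 0 members were called. As each genotype has 1 array of each number, the block leaves the changes as they were by construction (medians against WT of 0.64, 0.63 and 0.01 for phyA, phyB and phyAphyB), so these say nothing about stability. Signs of single members changed in 10 of 98 values for phyAphyB against WT, 6 of 98 for phyB against WT and 0 of 98 for phyA against WT. The cause of the sign changes was not tested. Many of the 98 could not change. The block, the absence of a filter and leaving out an array of a genotype outside the comparison leave a change as it was. For phyA against WT, leaving out WT replicate 1 and phyB replicate 2 together also repeats leaving out WT replicate 1. These counts are therefore no measure of stability. Over all probe sets tested, limma called 2 for phyA, 0 for phyB and 3 for phyAphyB against WT, and 93, 70 and 30 without WT replicate 2, which leaves 1 WT array that is assumed to vary like the other genotypes. None of the 7 was among them. By the F test the number called was 2, against 21 without WT replicate 2 and 7 with the replicate block, and for the interaction it was 0, against 16 without WT replicate 2. With 2 arrays per genotype, a p that misses the threshold does not show that the genotypes are alike.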
